A study of Pseudochlorella pringsheimii with 2 samples.

Results

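Contigs annotated as sugar transport proteins and as a hexokinase were analyzed in *C. ellipsoidea*. Contigs 56450 and 62118 were named by the study as sugar transport protein, and contig 62217 as hexokinase 2. They are 3 of the 13566 contigs with deposited counts. They were taken from the study's list of contigs past 4-fold between the strains, so they were chosen by their GmDof4 over CK ratio in these same libraries. That ratio is therefore given as a description, without a test.

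RNA-seq was performed on 1 library from each of 2 strains of the unicellular green alga *Chlorella ellipsoidea*, strain IGDB-1 (listed by GEO as *Pseudochlorella pringsheimii*). Dof4-1 carried pGmDof4, a vector with the soybean gene for the transcription factor GmDof4 behind a maize ubiquitin promoter, and CK-1 carried pCK, the same vector without the GmDof4 cassette. Both vectors hold the *npt*II gene and both strains had been selected on G418, and each strain is a single transformed line. Both were grown mixotrophically, that is with both light and organic carbon as sources of energy, in Endo medium without antibiotics for 120 hours at 25°C under 100 μmol photons/m2/s. Each library was made from the pooled cells of 3 cultures. No value has a replicate check, and an effect of GmDof4 cannot be told apart from any other difference between these lines or between the mixed cultures.

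A green alga that uses external sugar first carries it across the plasma membrane, and in *Chlorella kessleri* this is known to be done by hexose/proton symporters that are switched on when glucose is supplied. Hexokinase then transfers a phosphate from ATP to the hexose. The phosphorylated sugar stays in the cell and can enter glycolysis, the pentose phosphate pathway or the synthesis of starch. Which sugars the proteins of these contigs carry or phosphorylate was not measured here. The membrane and the direction of the transport were not measured either. No sequence of these contigs was analyzed here.

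The GmDof4 library held 14589660 counted reads and the CK library 14823559. Levels are given as RPKM, that is reads per kb of sequence for each 1000000 reads of the library, which can be compared between contigs. The median contig had 24.4 RPKM in GmDof4 and 22.6 RPKM in CK. Intervals are exact 95% intervals that cover counting error only, except where an assumed spread between libraries is named. Reads from a library made with PCR are not all independent molecules. RPKM is a share of the library, so the amount of RNA per cell was not measured.

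Both sugar transport contigs and the hexokinase contig had a higher level in the GmDof4 library than in the CK library. Contig 56450, of 2478 bp, had 673.0 RPKM in GmDof4 (interval 665 to 682) and 114 RPKM in CK (111 to 117). It was the most abundant of the 3 in both libraries. Contig 62118, of 2507 bp, had 329 RPKM in GmDof4 (323 to 335) and 71.1 RPKM in CK (68.4 to 73.8). The hexokinase contig 62217, of 3014 bp, had 241 RPKM in GmDof4 (237 to 246) and 42.8 RPKM in CK (40.9 to 44.8), the lowest level of the 3 in both libraries. The order of the levels was thus the same in both libraries, and the intervals of neighbors in that order did not overlap. That each contig was higher in GmDof4 follows from how the contigs were chosen.

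**Figure D1:**
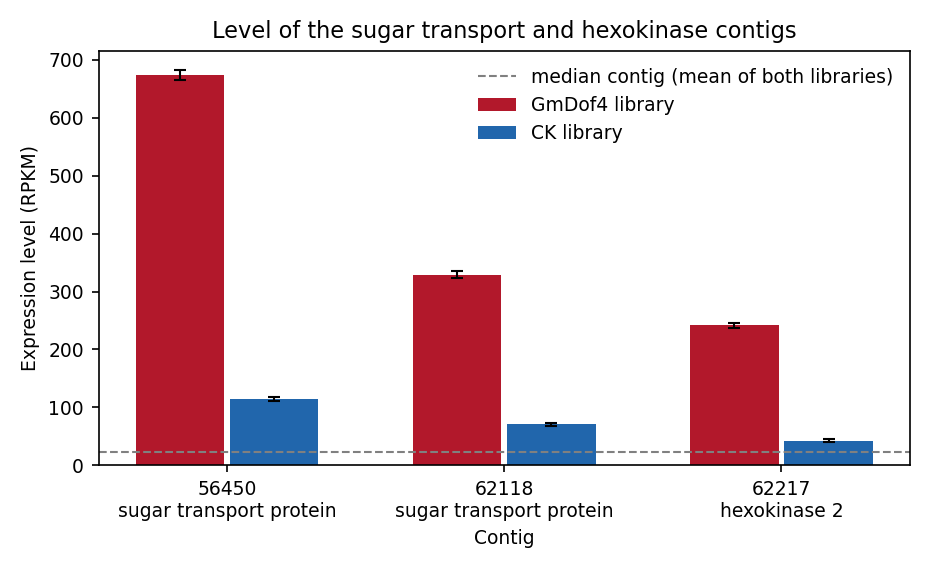
Level of the sugar transport contigs 56450 and 62118 and of the hexokinase contig 62217 in RPKM, with the GmDof4 library in red and the CK library in blue, 1 library each. Error bars are exact 95% intervals of the read count, and the dashed line is the mean of the library medians of 24.4 RPKM in GmDof4 and 22.6 RPKM in CK. The bars fall in the same order in both libraries, and the contigs were chosen by their GmDof4 over CK ratio.

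The CK levels were already above the median contig of that library. Contig 56450 stood at 27.6 times the library median in GmDof4 and at 5.04 times in CK. Contig 62118 stood at 13.5 times in GmDof4 and at 3.15 times in CK. Contig 62217 stood at 9.9 times in GmDof4 and at 1.9 times in CK. Sugar transport and hexokinase transcripts were thus readily detected in the control strain, and none of these ratios rests on a contig near 0 reads.

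By RPKM, contig 56450 was in place 131 of the 13566 contigs in GmDof4 and in place 1807 in CK, that is within the top 0.966% and the top 13.3%. Contig 62118 was in place 445 in GmDof4 and in place 2800 in CK. Contig 62217 was in place 699 in GmDof4 and in place 4205 in CK. Long contigs collect more reads, and by reads alone the places were higher, with place 2 in GmDof4 and 851 in CK for contig 56450, place 54 and 1606 for contig 62118, and place 86 and 2293 for contig 62217, GmDof4 before CK in each pair. All 3 contigs are long, and 1112 of the 13565 contigs with at least 1 read had the length of the shortest of them or more.

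**Figure D2:**
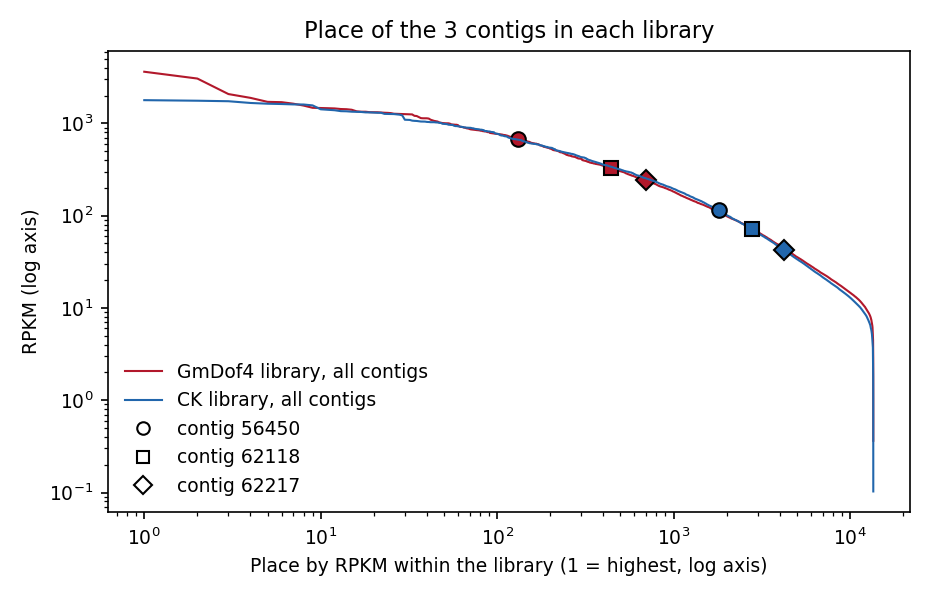
RPKM of every contig with reads against its place within the library, both on log axes, with the GmDof4 library in red and the CK library in blue. Symbols mark contigs 56450 (circle, places 131 in GmDof4 and 1807 in CK), 62118 (square, 445 and 2800) and 62217 (diamond, 699 and 4205). The curves of the libraries nearly coincide over this range, and the 3 contigs keep their order in both.

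In reads, contig 56450 had 24331 in GmDof4 against 4187 in CK, a 5.90-fold ratio of reads per 1000000 counted reads (RPM), with an interval of 5.71 to 6.10. Contig 62217 had 10618 in GmDof4 against 1914 in CK, a 5.64-fold ratio with an interval of 5.37 to 5.92. Contig 62118 had 12034 in GmDof4 against 2641 in CK, and its 4.63-fold ratio had an interval of 4.44 to 4.83. The intervals of contigs 56450 and 62217 overlapped with each other, and that of contig 62118 lay below both. On the log2 scale the ratios were 2.56, 2.49 and 2.21, in places 48, 52 and 68 among the 13565 contigs with at least 1 read.

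Past 4-fold higher in GmDof4 were 3 of the 3 contigs, a count fixed by how they were chosen, and 0.641% of all contigs tested (87 of 13565). Their median log2 ratio was 2.49, and that of all contigs tested was 0.09. Contig 62118 was the closest of the 3 to the 4-fold threshold. Over all contigs, the nearest to it were contig 66124 just inside, with 3272 reads in GmDof4 and 831 in CK, and contig 71217 just outside, with 98 and 25. For an assumed coefficient of variation (CV) of 0.1 for each contig in each library, the 95% interval of the log2 ratio reached 2.09 at its lower end for contig 62217, 2.16 for contig 56450 and 1.81 for contig 62118. With an assumed CV of 0.4 these lower ends were 0.89, 0.96 and 0.61. These CVs are assumptions that the libraries cannot check, and the intervals lie around ratios by which the contigs were chosen.

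The fold ratios of the sugar transport and hexokinase contigs were then compared. The contigs were all chosen for ratios past 4-fold in these libraries, which favors like ratios. The comparison is therefore a description and no test. The difference between the log2 ratios of 2 contigs does not depend on the library totals, because they cancel. Contig 56450 minus the hexokinase contig 62217 gave a difference of 0.07, with an interval of -0.02 to 0.15, so its fold was 1.05 times that of hexokinase, with an interval of 0.987 to 1.11. Contig 62118 minus contig 62217 gave -0.28 (-0.38 to -0.19), so the fold of this transport contig was 0.821 times that of hexokinase. The sugar transport contigs differed from each other by 0.35 (0.27 to 0.43), contig 56450 minus contig 62118. The ratio of hexokinase lies between theirs, so this difference had to exceed either difference from hexokinase.

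Summed over both sugar transport contigs, 36365 reads were found in GmDof4 and 6828 in CK, a 5.41-fold ratio (5.27 to 5.55). Any other sugar transport contigs carry no names in the counts and are not in this sum. Against the 5.64-fold ratio of hexokinase, the summed difference of log2 ratios was -0.06 (-0.14 to 0.02). The sum and contig 56450 thus did not differ from hexokinase beyond counting error, with the difference bounded by these intervals, whereas contig 62118 differed from both others by more than counting error. A CV of 0.1 was also assumed, independent between contigs and applied to the sum as to 1 contig. The interval of each of these 4 differences then included 0. It ran, for example, from -0.86 to 0.29 for contig 62118 minus contig 62217 and from -0.22 to 0.92 for contig 56450 minus contig 62118. With 1 library per strain, whether the sugar transport and hexokinase contigs changed by the same factor in the strains was not resolved beyond these 2 libraries.

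**Figure D3:**
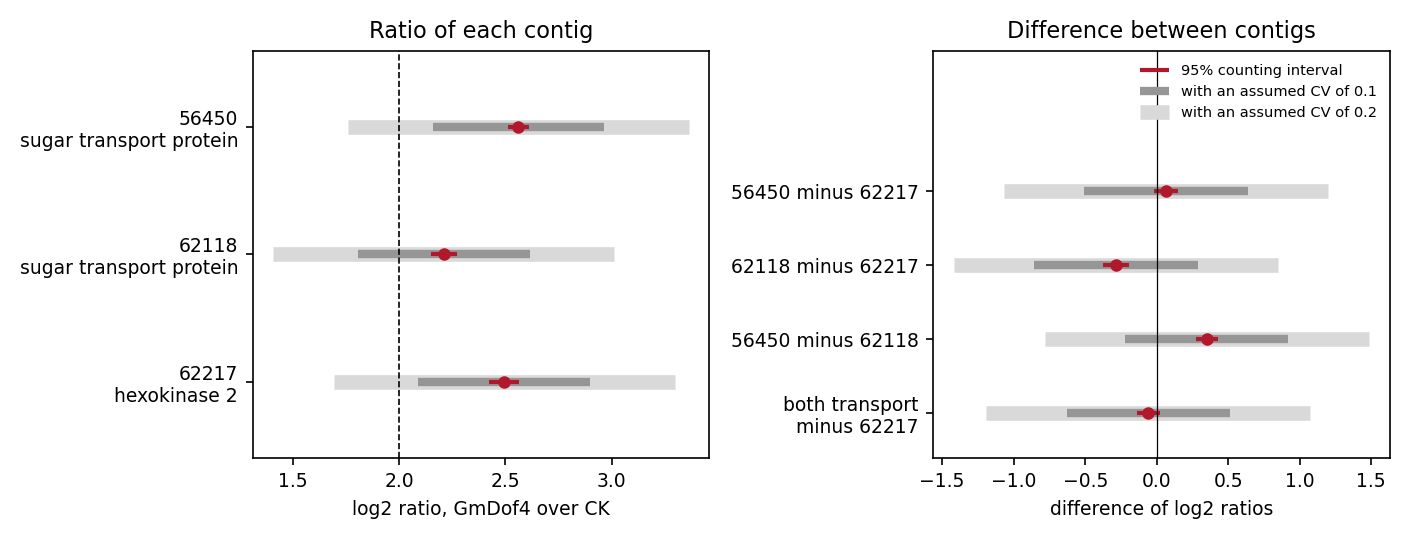
Left, log2 ratio of RPM, GmDof4 over CK, for each contig, with the 4-fold threshold dashed. Right, differences between the log2 ratios of pairs of contigs and of the summed sugar transport contigs. Points are the measured values, red lines the exact 95% counting intervals, and dark and light grey bars the 95% intervals with an assumed CV of 0.1 and 0.2. The red lines leave 0 for the pairs 62118 minus 62217 (-0.28) and 56450 minus 62118 (0.35), and every grey bar on the right crosses 0.

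Inside each library the proportions between the contigs were compared per kb. They restate the differences above from the same reads and are no separate evidence. The level of contig 56450 was 2.79 times that of hexokinase in GmDof4 (2.72 to 2.85) and 2.66 times in CK (2.52 to 2.81), and these intervals overlap. The level of contig 62118 was 1.36 times that of hexokinase in GmDof4 (1.33 to 1.40) and 1.66 times in CK (1.56 to 1.76). The summed RPKM of the transport contigs was 4.15 times that of hexokinase in GmDof4 and 4.32 times in CK. Of the proportions to hexokinase of the single contigs, that of contig 62118 had intervals that did not overlap between the libraries.

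Within the reads of both sugar transport contigs the balance was different, which restates their difference of log2 ratios. Contig 56450 held 66.9% of the reads of both transport contigs in GmDof4 (66.4 to 67.4) and 61.3% in CK (60.2 to 62.5). Per kb, its level was 2.05 times that of contig 62118 in GmDof4 and 1.60 times in CK. In the study's annotation the contigs matched different database proteins under the same description. The reads were mapped with BWA at its default settings, and the sources do not say how reads that fit more than 1 contig entered the counts, so an exchange of reads between similar transporters was not tested.

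Together the 3 contigs took 0.322% of the counted reads in GmDof4 (0.319 to 0.325) and 0.059% in CK (0.0577 to 0.0602). By the difference in RPM, GmDof4 minus CK, contig 56450 was in place 2 of all contigs, with 1385 RPM more in GmDof4. Only the hsp100 family contig 84262 had a larger difference, of 1637 RPM. Contigs 62118 and 62217 followed in places 11 and 12, with 647 and 599 RPM more in GmDof4. The 87 contigs past 4-fold higher had 8599 RPM more in GmDof4 when added up, and the 3 contigs held 30.6% of this sum. Of the RPM gained by all 8047 contigs that were higher in GmDof4, they held 1.97%. RPM is not corrected for length, so these places and shares favor long contigs such as these 3. In RPKM, the shorter contigs 86715 (856 in GmDof4, 103 in CK) and 84263 (842 and 144) differed by more than contig 56450 (673 and 114).

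Most contigs past 4-fold higher in GmDof4 were less abundant than these. The median contig among the 87 had 31.8 RPKM in GmDof4 and 4.44 RPKM in CK, against at least 241 and 42.8 RPKM for the sugar transport and hexokinase contigs. Of the 699 contigs that had the GmDof4 level of contig 62217 or more, 8 were past 4-fold higher, or 1.14%, and 0 were past 4-fold lower. The other 5 were the heat shock contigs 86715, 84262, 86717 and 86306 and contig 84263, which the study does not name. A cut by the level in 1 library favors contigs that are higher in that library. Of the 4205 contigs that had the CK level of contig 62217 or more, 8 were past 4-fold higher, or 0.19%, and 24 were past 4-fold lower. Between the CK levels of contigs 62217 and 56450 there were 2399 contigs, with a median log2 ratio of -0.02 and a median size of the log2 ratio, without its sign, of 0.23. Of these, 6 were past 4-fold higher in GmDof4, the others being contigs 86715, 86717 and 64092, and 8 were past 4-fold lower. Among the 1112 contigs of at least 2478 bp, 4 were past 4-fold higher, the other being contig 84262, and 0 were past 4-fold lower. The 3 contigs count in each of these groups and were chosen by their ratio, so these shares describe where they lie and are no test.

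**Figure D4:**
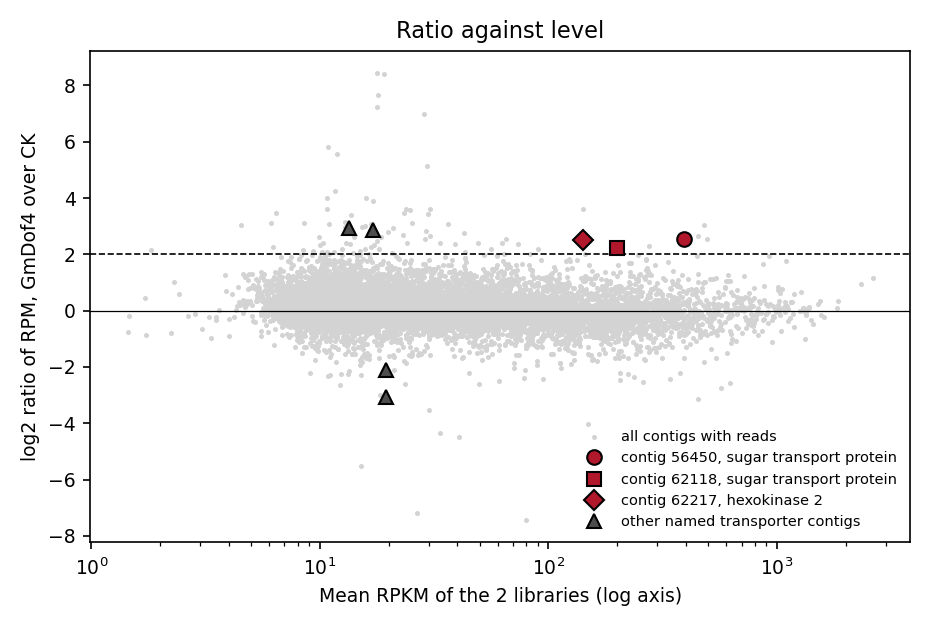
Log2 ratio of RPM, GmDof4 over CK, of all 13565 contigs with reads (grey points) against the mean RPKM of both libraries on a log axis, with the 4-fold threshold dashed. Red symbols mark contigs 56450, 62118 and 62217, and dark triangles the sodium sulfate co-transporter and purine permease contigs. The red symbols lie at the abundant end, where few grey points stand above the dashed line, and the triangles lie near the median level.

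The contigs most like each of the 3 were those nearest to it in log2 RPKM in GmDof4 and in CK, a likeness over 2 libraries only. For contig 56450 these were the heat shock contigs 84262, with 777 RPKM in GmDof4 and 124 RPKM in CK, and 86715, with 856 and 103, at distances of 0.24 and 0.37. Contig 62217 was nearest to contig 64092, with 233 RPKM in GmDof4 and 58.0 in CK, and to contig 85926, with 193 and 54.4. For contig 62118 the nearest were contigs 35241 and 64098, at distances of 0.50 and 0.54, and their log2 ratios of 1.61 and 1.63 were within 4-fold. The files give no name for these last 4 contigs.

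The study's list of contigs past 4-fold also names 4 contigs for the transport of other small molecules, all far less abundant in GmDof4. In CK the purine carriers, at 34.6 and 31.5 RPKM, were closer to the 42.8 RPKM of the hexokinase contig 62217. The sodium sulfate co-transporter contigs 67904 and 65347, which by name bring sulfate into the cell together with sodium, were higher in GmDof4. Contig 67904 had 23.7 RPKM in GmDof4 and 3.09 RPKM in CK, which is a 7.67-fold ratio (5.78 to 10.4). Contig 65347 had 30.1 RPKM in GmDof4 and 4.13 RPKM in CK, a 7.29-fold ratio (6.01 to 8.92), and the difference between these contigs of 0.07 had an interval of -0.43 to 0.59. The purine carriers went the other way. The uric acid-xanthine permease contig 62487 had 4.15 RPKM in GmDof4 and 34.6 RPKM in CK, with a log2 ratio of -3.06 (-3.48 to -2.67). The purine permease contig 80480 had 7.33 RPKM in GmDof4 and 31.5 RPKM in CK, with a log2 ratio of -2.10 (-2.54 to -1.69). These 4 contigs too were chosen by their ratio. The Snf7-domain-containing and hypothetical protein contigs that the study also lists under transport are not named as carriers of a small molecule and are not described here. Any other sugar transport or hexokinase contigs, and other steps of sugar use such as the later enzymes of glycolysis, were not analyzed here. They carry no names in the files.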

How the data were processed

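Contigs were assembled by the authors with SOAPdenovo from single-end reads of 3 libraries, and those of 300 bp or more served as the reference for mapping with BWA under its default settings, followed by counting per contig. Their versions are not given in the sources consulted. The deposited counts are raw reads per contig. The authors derived the deposited RPKM from these counts, the contig length and the library total, and a recalculation differed by at most 5.23e-12. Contig lengths were read from the contig names, of which the other parts were not used. Contig descriptions came from the study's table.

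The samples were assigned to GmDof4 and CK by their labels. Ratios were calculated from RPM without a pseudocount, with 0 reads set to 3 reads in counts over all contigs. Of all contigs, 13565 had at least 1 read. With 1 library per strain no p-value was calculated. Intervals are exact Clopper-Pearson or Poisson intervals and, for differences of log2 ratios, the exact conditional interval of the odds ratio (scipy 1.17.1, Python 3.11.15), all at 95%. Those with an assumed CV are instead normal approximations at 95% that add this CV to counting error. The CV was taken as independent between contigs and libraries, and the summed transport contigs were treated as 1 contig. The intervals of ratios and of differences were checked on simulated Poisson counts with 200 changed contigs. Such counts vary by counting error only, so this checks the calculation and not the spread between libraries. Alternatives used edgeR 4.0.16 (TMM) and DESeq2 1.42.0 (median-of-ratios) for scaling only.

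The named contigs were the 3 members, the 4 other small-molecule transporters of the study's table, the 2 contigs nearest to each member in level and the contig nearest to 4-fold on each side. Contigs 84263 and the others that share the level or length of the members were named after their values were seen, to account for small counts. The members and lists were chosen with earlier results of these data known.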

Additional observations from a re-analysis of the deposited data

How the results depend on the processing

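All 3 contigs stayed past 4-fold under each of the 11 settings of scaling, filters and pseudocounts. The log2 ratios moved beyond their counting intervals under TMM scaling, to 2.48 for contig 56450, 2.13 for contig 62118 and 2.42 for contig 62217, with the same values for contigs with at least 10 reads. Under median-of-ratios scaling they were 2.47, 2.12 and 2.40 in the same order. After subtraction of a running median over 500 contigs ordered by level, contig 62118 had 2.32 and contig 62217 had 2.60. The differences between contigs stayed within their counting intervals under each setting run, and the centring was not run for the summed transport contigs, because it is defined for single contigs. The assumed CVs change the intervals and not the values. With a CV of 0.2, the interval of the log2 ratio of contig 56450 was 1.76 to 3.36. The assumed CVs for the single ratios were added after the data were examined. No leaving out of replicates was possible because there is 1 library per strain. Places among all contigs depended on the measure, and in GmDof4 contig 56450 was in place 131 by RPKM, 2 by reads and 54 by RPKM among contigs of at least 500 bp.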
